A study of Sus scrofa with 8 samples.

Results

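DUSP1, PPP1R15A, SIK1, GEM, CSRNP1 and PER1 were examined as a group of rapidly induced regulators in the dorsal subcutaneous fat of pigs. Members were the rows of the table of values per pig whose gene name was one of these 6 symbols. All 6 were found once among the 458 genes of that table, which are the genes that the authors had called differentially expressed out of 10710. The fat came from 4 Alentejano (AL) and 4 Bísaro (BI) pigs, all purebred castrated males with a carcass weight of 150 kg in the labels, kept in a free-ranged system on commercial diets offered ad libitum. The methods of the study use this weight for the live animal at slaughter, and which of the 2 is meant is not known here. No other treatment separated the groups, so that breed was the only labelled contrast. By the methods of the study, AL pigs were on trial for more days on average than BI pigs, which cannot be told apart from breed. Each pig gave 1 mRNA library, and the pigs are named by the replicate numbers of the labels, AL44, AL49, AL52 and AL63, and BI25, BI34, BI36 and BI37. Castrated males and a single fat depot limit what the groups stand for, and the hour of sampling is not given in the sources used here.

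Genes of this kind are switched on within minutes by hormones, stress or growth factors, and many of their products act back on the signal that induced them. DUSP1 is a phosphatase that inactivates MAP kinases. PPP1R15A (also called GADD34) directs protein phosphatase 1 to the translation factor eIF2 alpha and so lifts the block on protein synthesis that stress imposes. SIK1 is a kinase induced by cAMP that restrains the CREB coactivators of the CRTC family. GEM is a small GTPase of the RGK family that lowers the activity of voltage-gated calcium channels. CSRNP1 is a nuclear protein induced by AXIN1 and by growth signals, and PER1 is a core repressor of the circadian clock that glucocorticoids and cAMP also induce.

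The 6 genes were higher on average in BI. Their promoters are shown first because several of the genes are textbook targets of cAMP signalling. In the 250 bases before the start of each gene (RefSeq annotation, Sscrofa11.1), the cAMP response element TGACGTCA was searched on both strands, together with its 5-letter core TGACG, which the full element contains on each strand. Each line below gives a stretch 5′ to 3′ on the strand of the gene, and capitals mark the core in either orientation (TGACG or CGTCA).
DUSP1: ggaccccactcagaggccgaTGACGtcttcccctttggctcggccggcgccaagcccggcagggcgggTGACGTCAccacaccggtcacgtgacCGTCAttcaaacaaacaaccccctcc
PPP1R15A: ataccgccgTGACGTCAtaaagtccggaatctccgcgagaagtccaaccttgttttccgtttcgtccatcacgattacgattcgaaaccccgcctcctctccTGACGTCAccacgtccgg
GEM: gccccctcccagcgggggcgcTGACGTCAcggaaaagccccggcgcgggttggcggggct
SIK1: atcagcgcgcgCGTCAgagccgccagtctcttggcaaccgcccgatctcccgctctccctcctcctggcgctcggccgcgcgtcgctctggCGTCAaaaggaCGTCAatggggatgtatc
CSRNP1: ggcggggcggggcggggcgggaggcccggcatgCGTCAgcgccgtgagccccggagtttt
PER1: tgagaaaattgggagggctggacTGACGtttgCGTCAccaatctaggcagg

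The stretches lie at chr16:51457804-51457923 (plus strand) for DUSP1, chr6:54171888-54172007 (plus) for PPP1R15A, chr4:42458531-42458590 (plus) for GEM, chr13:206465933-206466052 (minus) for SIK1, chr13:23845199-23845258 (minus) for CSRNP1 and chr12:53376913-53376963 (minus) for PER1. The full element TGACGTCA was found in 3 of the 6 promoters, once in DUSP1 and GEM and at 2 places in PPP1R15A. In all promoters of the same length, 1.70% of 19556 held it, and 2.07% of the 386 promoters of genes with values per pig that could be placed by symbol. The core TGACG was found in all 6 promoters, against 19.6% of all promoters. The E-box CACGTG was found in DUSP1 and PER1 (6.39% of all promoters). The AP-1 site TGANTCA (5.27% of all promoters) and the CArG box, the site of serum response factor (1.31%), were not found in these windows. These matches describe letters in a short window, and binding was not measured. Genes picked as rapidly induced can be expected to hold such elements, and their part in the breed difference was not tested.

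The 6 genes also had AU-rich letters in their 3′ untranslated regions, which are known to shorten the life of induced mRNAs. In the longest RefSeq transcript of each gene, the pentamer ATTTA was found at least once in all 6. It was found in 62.4% of 18182 protein-coding genes with such a region, and in 56.3% of 375 genes with values per pig. Its density had a median of 4.20 per kb in the 6 genes, 1.15 per kb in all genes and 0.73 per kb in genes with values per pig. It was highest in PPP1R15A (9.52 per kb), from 1 pentamer in 105 bases. It was lowest in SIK1 (1.53 per kb) and PER1 (1.68 per kb, from 1 pentamer). The longer form TTATTTATT was found in DUSP1, CSRNP1 and PER1, and in 6.92% of all genes. Decay of these mRNAs was not measured, and the part of these letters in the breed difference was not tested. The genes had few exons with 2 exceptions: PPP1R15A had 3, DUSP1 4 and GEM and CSRNP1 5, whereas SIK1 had 14 and PER1 23. Transcripts with 5 exons or fewer made up 37.2% of all protein-coding genes.

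The values below are normalized counts, the reads of a gene divided by the size factor that DESeq2 gave the pig. Every value was a whole multiple of 1 step in its pig, within 0.05 of a step, and the step was taken as 1 read. In some pigs low values were too few to check that a step is 1 read and not several, and the read numbers, size factors and counting intervals rest on it. The size factors derived from these steps were 0.675 to 1.10 in AL and 1.06 to 1.46 in BI. Between 166 and 1141 reads per pig fell on the 6 genes together, of 359708 to 883622 on the 458 genes. For the log2 fold change (log2 FC), log2(normalized count + 1) was averaged within each breed and BI was subtracted from AL. A negative value is therefore higher in BI, and the added 1 makes the change of a gene with few reads look smaller than it is. All 70 ways to divide the pigs into groups of 4 were enumerated in an exact permutation test (two-sided), which cannot give a p under 0.0286. Because all 458 genes had been chosen for a breed difference in the same pigs, p describes how far the pigs lie apart and is not independent evidence.

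DUSP1 (ENSSSCG00000016991, chr16:51457924-51461095, plus strand) had 57.8, 30.8, 62.4 and 49.1 normalized counts in AL44, AL49, AL52 and AL63, and 94.8, 201, 182 and 99.99 in BI25, BI34, BI36 and BI37. All BI pigs lay above all AL pigs, and within BI the pigs BI34 and BI36 stood well above BI25 and BI37. AL averaged 50.02 ± 13.9 (SD, n = 4) and BI 145 ± 55.1 (SD, n = 4), which was 2.89 times as high. This gave a log2 FC of −1.48 (standard error 0.36; p = 0.0286, exact permutation).

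For PPP1R15A (ENSSSCG00000003155, chr6:54172038-54175461, plus strand), AL44, AL49, AL52 and AL63 had 51.8, 51.7, 33.3 and 93.0 normalized counts. BI25, BI34, BI36 and BI37 had 99.4, 157, 114 and 119. The breeds did not overlap, but AL63 lay close under the lowest BI pig, and the counting intervals of these 2 pigs overlapped (72.5 to 117 in AL63 and 83.1 to 118 in BI25, exact Poisson, 95%). AL averaged 57.5 ± 25.2 (SD, n = 4) and BI 122 ± 24.3 (SD, n = 4), and the log2 FC of −1.15 had a standard error of 0.33 (p = 0.0286, exact permutation). The SD of the normalized counts was of the same size in both breeds, but relative to the mean the AL pigs were spread more widely.

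SIK1 (ENSSSCG00000035037, chr13:206454695-206465802, minus strand) had 66.7, 34.5, 55.9 and 25.2 normalized counts in AL44, AL49, AL52 and AL63, and 109, 179, 93.5 and 66.7 in BI25, BI34, BI36 and BI37. BI37 exceeded AL44 by only 0.00230 normalized counts, whereas 1 read was worth 1.48 in AL44 and 0.833 in BI37. The breeds were therefore separated by less than 1 read, and the exact permutation p of 0.0286 rests on that difference. AL averaged 45.6 ± 19.0 (SD, n = 4) and BI 112 ± 47.8 (SD, n = 4), a log2 FC of −1.28 (standard error 0.43). Without BI34, the highest pig, it was −1.03.

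GEM (ENSSSCG00000006105, chr4:42458591-42471941, plus strand) had few reads in every pig. Its normalized counts were 14.8, 7.25, 6.45 and 18.6 in AL44, AL49, AL52 and AL63, from 6 to 14 reads, and 29.1, 37.8, 43.5 and 15.8 in BI25, BI34, BI36 and BI37, from 19 to 55 reads. BI37 lay under AL63, so that the breeds overlapped. AL averaged 11.8 ± 5.90 (SD, n = 4) and BI 31.5 ± 12.0 (SD, n = 4), a log2 FC of −1.38 (standard error 0.46). With these overlapping pigs the exact permutation test gave p = 0.0571. Without AL63 or without BI37 the remaining pigs did not overlap.

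CSRNP1 (ENSSSCG00000011264, chr13:23833130-23845198, minus strand) had the fewest reads of the 6 genes and, with a pseudocount of 1, the largest log2 FC. AL44, AL49, AL52 and AL63 had 7.41, 2.72, 6.45 and 15.9 normalized counts, from only 5, 3, 6 and 12 reads. BI25, BI34, BI36 and BI37 had 18.4, 44.6, 20.8 and 23.3. BI34 stood above the other 3 BI pigs, and AL63 above the other 3 AL pigs without reaching BI25. The counting intervals of AL63 (8.23 to 27.8) and BI25 (11.8 to 27.3) overlapped (exact Poisson, 95%). That of AL63 also overlapped those of BI36 and BI37. AL averaged 8.13 ± 5.58 (SD, n = 4) and BI 26.8 ± 12.1 (SD, n = 4), a log2 FC of −1.72 (standard error 0.53; p = 0.0286, exact permutation). The 3 reads of AL49 correspond to an interval of 0.561 to 7.95 normalized counts (exact Poisson, 95%), and a pseudocount of 10 in place of 1 reduced the log2 FC to −1.02, under that of DUSP1 (−1.33), SIK1 (−1.12) and PPP1R15A (−1.03). By breed medians GEM (−1.58) was ahead of CSRNP1 (−1.54).

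PER1 (ENSSSCG00000017983, chr12:53361863-53376723, minus strand) had the smallest log2 FC with all pigs and a pseudocount of 1. Its normalized counts were 47.4, 43.5, 98.9 and 50.5 in AL44, AL49, AL52 and AL63, and 163, 165, 100.2 and 75.8 in BI25, BI34, BI36 and BI37. AL52 stood apart from the other 3 AL pigs and lay above BI37, so that the breeds overlapped. AL averaged 60.1 ± 26.04 (SD, n = 4) and BI 126 ± 44.9 (SD, n = 4). The log2 FC of −1.06 had a standard error of 0.38 and did not pass (p = 0.0571, exact permutation). Without AL52 it was −1.33 and the breeds did not overlap, and without BI34 it was −0.91. PER1 was not the smallest without AL52 or BI37 or by breed medians, where PPP1R15A was, nor with a pseudocount of 10, where GEM was (−0.92 against −0.96 for PER1).

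**Figure D1:**
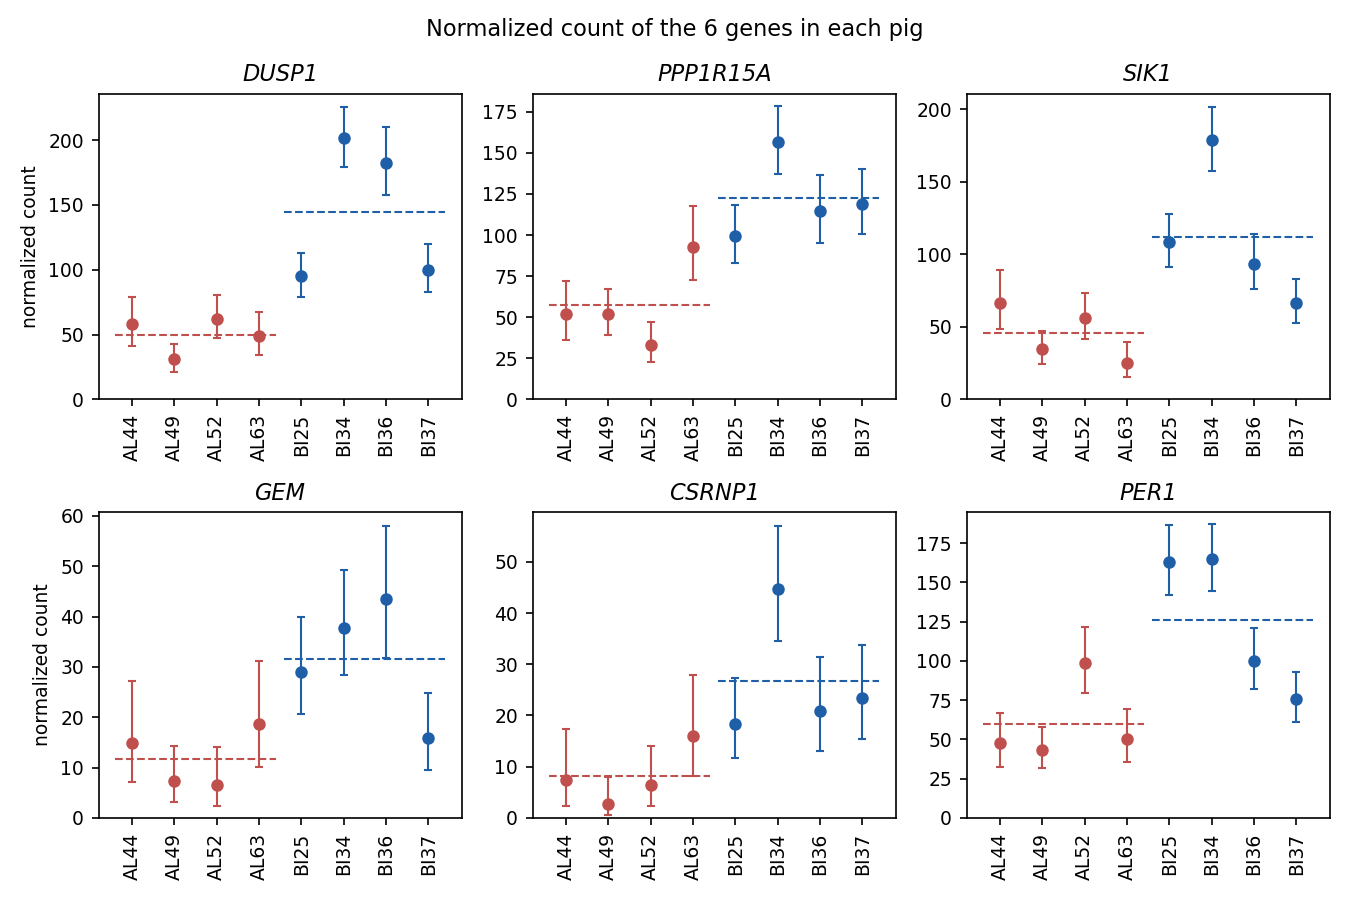
Normalized counts (linear axis from 0) of the 6 genes in each of the 4 AL (red) and 4 BI (blue) pigs, with exact 95% Poisson intervals that cover counting error only and a dashed line at the mean of each breed. In DUSP1, PPP1R15A, SIK1 and CSRNP1 all BI points lie above all AL points, in SIK1 by 0.00230 normalized counts, whereas AL63 exceeds BI37 in GEM and AL52 exceeds BI37 in PER1.

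The breeds did not overlap in 4 of the 6 genes, each higher in BI. Over all genes with values per pig, 79.5% did not overlap in either direction, 31.2% did not overlap and were higher in BI, and of the 195 genes higher in BI 73.3% did not overlap. The 4 of 6 are thus near the background of this table and are no result particular to these genes. By limma over the 458 genes all 6 had an adjusted p under the threshold, from 0.00305 for DUSP1 to 0.00883 for GEM, but so had 99.6% of all 458 genes and 99.5% of those higher in BI. The median log2 FC of the 6 genes was −1.33, and that of the 195 genes higher in BI was −1.29.

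The log2 FC of the 6 genes ranged from −1.72 to −1.06, and no pair differed by the test of their ratio. The log2 ratio of 2 genes within a pig does not depend on the size factor, apart from the pseudocount, and was compared between the breeds for all 15 pairs. None passed the two-sided exact permutation test, with p between 0.20 and 0.94 and the smallest adjusted p at 0.90 (Benjamini-Hochberg over the 15 pairs). CSRNP1 against PER1 had the largest difference, −0.66 with a standard error of 0.59, and PPP1R15A against CSRNP1 the next, 0.57 with a standard error of 0.39. PPP1R15A against PER1 had the smallest, −0.09 with a standard error of 0.59. Standard errors of this size leave room for unequal changes of the same order, so that the genes are not shown to change alike.

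**Figure D2:**
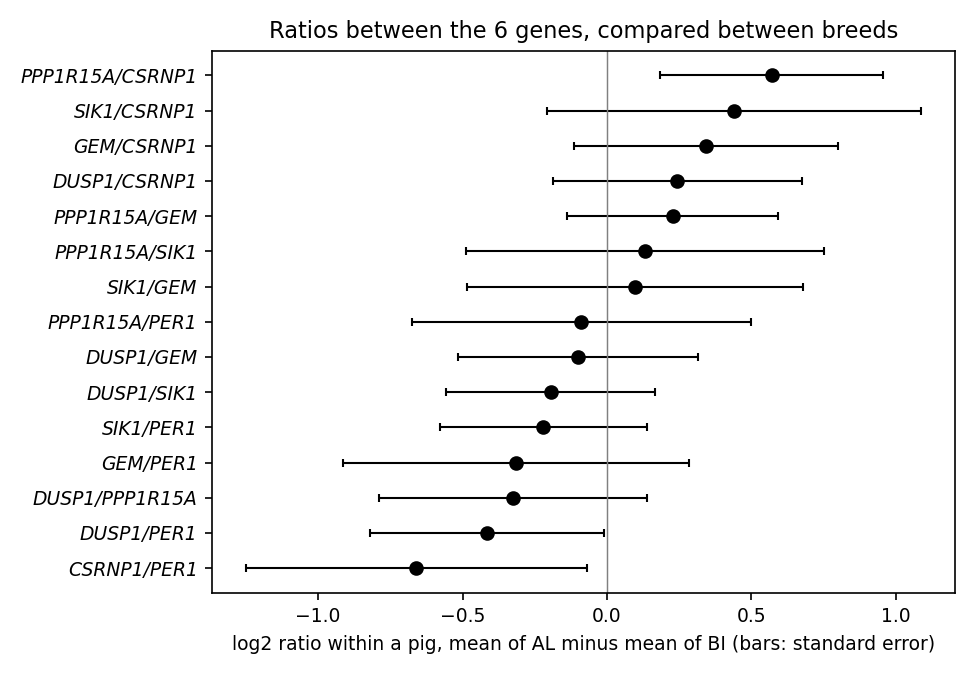
Difference between the breeds in the log2 ratio of 2 genes within a pig (mean of 4 AL minus mean of 4 BI pigs), with standard errors, for the 15 pairs of the 6 genes. The differences range from −0.66 to 0.57, and the exact permutation p was 0.20 or more for each pair.

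Per kb of exon, DUSP1 and PPP1R15A were the most abundant and GEM and CSRNP1 the least. In BI the normalized count per kb was 68.1 for DUSP1, 52.8 for PPP1R15A, 25.1 for SIK1, 20.6 for PER1, 9.87 for GEM and 8.39 for CSRNP1. In AL it was 24.8 for PPP1R15A, 23.6 for DUSP1, 10.2 for SIK1, 9.83 for PER1, 3.69 for GEM and 2.55 for CSRNP1. Within BI the only neighbours in this order whose 4 pigs did not overlap were PPP1R15A (at least 42.9) and SIK1 (at most 40.0). Within AL all neighbours overlapped except PER1 (at least 7.12) and GEM (at most 5.82). Before division by length, the authors' means over the 8 pigs place DUSP1, PER1, PPP1R15A and SIK1 between percentile 81.3 and percentile 83.4 of the 10710 genes, and GEM at 61.0 and CSRNP1 at 55.7.

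Pigs of a breed were not ordered alike in all 6 genes, but BI34 was high throughout. BI34 had the highest value of its breed in 5 genes, the exception being GEM, where BI36 was highest, and it lay above the BI mean in all 6, by 0.55 on average on the log2 scale. BI37 lay under the BI mean in all 6 genes, by 0.45 on average, and was lowest in SIK1, GEM and PER1. In AL, AL49 lay under the breed mean in all 6 genes, by 0.49 on average, and was lowest in DUSP1, CSRNP1 and PER1. AL63 was highest in PPP1R15A, GEM and CSRNP1 but lowest in SIK1. BI34 had the largest size factor of the 8 pigs (1.46), AL49 the largest of AL (1.10) and BI37 the second lowest of BI (1.20), and their part in this order was not tested.

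**Figure D3:**
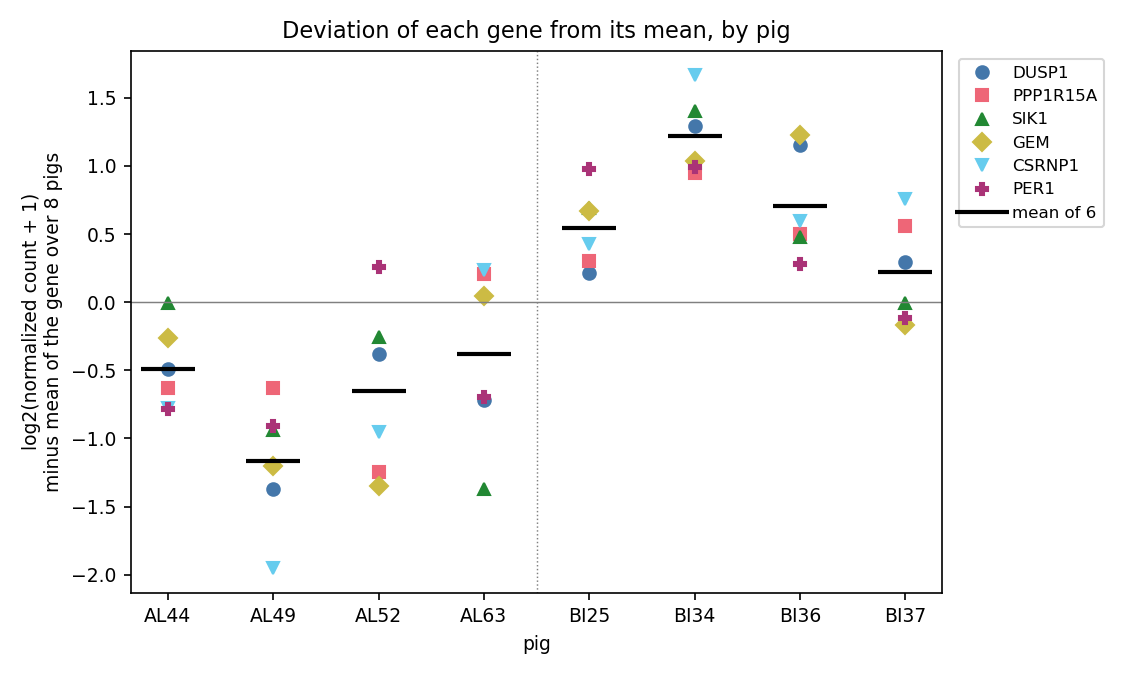
Deviation of log2(normalized count + 1) of each of the 6 genes from its mean over the 8 pigs, with the mean of the 6 genes as a black bar. The bars lie between −1.17 (AL49) and −0.38 (AL63) in AL and between 0.22 (BI37) and 1.22 (BI34) in BI, and single genes cross 0 in AL52, AL63 and BI37.

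Counting error was a minor part of the spread in 4 of the genes. Expressed as a share of the variance of log2(normalized count + 1) within breeds, it was 12.1% for DUSP1, 14.0% for PPP1R15A, 10.4% for SIK1 and 10.2% for PER1, but 29.3% for GEM and 30.96% for CSRNP1. The SD within breeds on the log2 scale was lowest in PPP1R15A (0.46) and highest in CSRNP1 (0.74), against a median of 0.45 over the 458 genes.

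The genes whose profile over the 8 pigs was nearest to the mean profile of the 6 genes were DFFB, USP24, CROCC, AKAP17A and INTS11. Likeness was measured over the 452 other genes as the root mean square difference between log2 values centred on the mean of each gene, which also takes in the breed difference. It was 0.18 for DFFB, a nuclease subunit of apoptosis, 0.18 for USP24, a deubiquitinase, 0.21 for CROCC, a ciliary rootlet protein, 0.26 for AKAP17A, a splicing-related anchoring protein, and 0.26 for INTS11, the catalytic subunit of the Integrator complex. Of the 6 genes, DUSP1 lay at 0.26 from their mean profile and CSRNP1 farthest, at 0.46.

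Other immediate-early genes were taken from lists of textbook families that were written with the names of the called genes known. Of 27 immediate-early transcription factors, 25 were in the authors' table and 9 had values per pig, FOS, FOSB, JUND, EGR1, ATF3, KLF2, KLF4, KLF6 and ID1. All 9 were higher on average in BI, as were 195 of the 458 genes with values per pig. The breeds did not overlap in 5 of the 9 (FOS, FOSB, EGR1, KLF2 and KLF4). In KLF4 the values of AL63 (132.81) and BI25 (133.06) were separated by less than 1 read, so that the count of 5 rests on that difference. There 1 read was worth 1.33 and 0.765 normalized counts. Of all 195 genes higher in BI 73.3% did not overlap, so that the 5 of 9 are no result particular to these factors. ATF3 had the largest difference, with a log2 FC of −2.17 (standard error 0.82), but its breeds overlapped, and JUND the smallest, −0.70 (standard error 0.18). By likeness to the mean profile of the 6 genes, KLF4 ranked 7, FOS 18, KLF2 19, JUND 63, EGR1 69, FOSB 84, KLF6 110, ID1 156 and ATF3 174 of 452. None of the 25 other signalling and mRNA decay feedback genes of the table, among them IER2, ZFP36, SOCS3, GADD45B and SGK1, had values per pig. This list was drawn up without the 6 genes, which are regulators of the same kind, so that its count is not set against theirs. Of all 10710 genes, 4.28% had values per pig.

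The nearest relatives and partners of the 6 genes had values per pig in few cases, but so had few of all genes (4.28% of 10710). Except for the MAP kinases, each list below holds 1 or 2 of the 6 genes. The counts are therefore no result about these families. Among the MAP kinase phosphatases DUSP1 was 1 of 7 in the authors' table, and none of 12 MAP kinases and their activating kinases was included. Of 18 genes of the authors' table in the list around SIK1, 2 had values per pig, SIK1 and CREBBP, a CREB coactivator. CREBBP averaged 42.2 ± 9.49 (SD, n = 4) in AL pigs and 96.0 ± 36.8 (SD, n = 4) in BI pigs. Its breeds did not overlap, but AL52 (53.8) and BI37 (54.2) were separated by less than 1 read. There 1 read was worth 1.08 and 0.833 normalized counts. The others of this list, among them SIK2, SIK3, the 3 CRTC genes, CREB1 and EP300, had no values per pig. In the list around GEM 2 of 5 genes of that table had values per pig, GEM and CACNB2, a beta subunit of the calcium channels. CACNB2 averaged 11.05 ± 1.63 (SD, n = 4) in AL pigs and 26.8 ± 6.97 (SD, n = 4) in BI pigs, without overlap (log2 FC −1.18, standard error 0.23). Of all 195 genes higher in BI 73.3% did not overlap. REM1, REM2 and CACNB3, a beta subunit with a higher mean over the 8 pigs (759 against 18.9), had no values per pig. PER1 was the only 1 of 19 clock genes in the table with values per pig. Among 15 glucocorticoid-responsive genes of the table, those with values per pig were PER1, DUSP1, ZBTB16 and PCK1. ZBTB16, a transcription factor, had a log2 FC of −1.27 (standard error 0.37), and PCK1, the enzyme of glyceroneogenesis, −2.42 (standard error 1.03). Both had overlapping breeds (exact permutation p = 0.0571 for each).

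**Figure D4:**
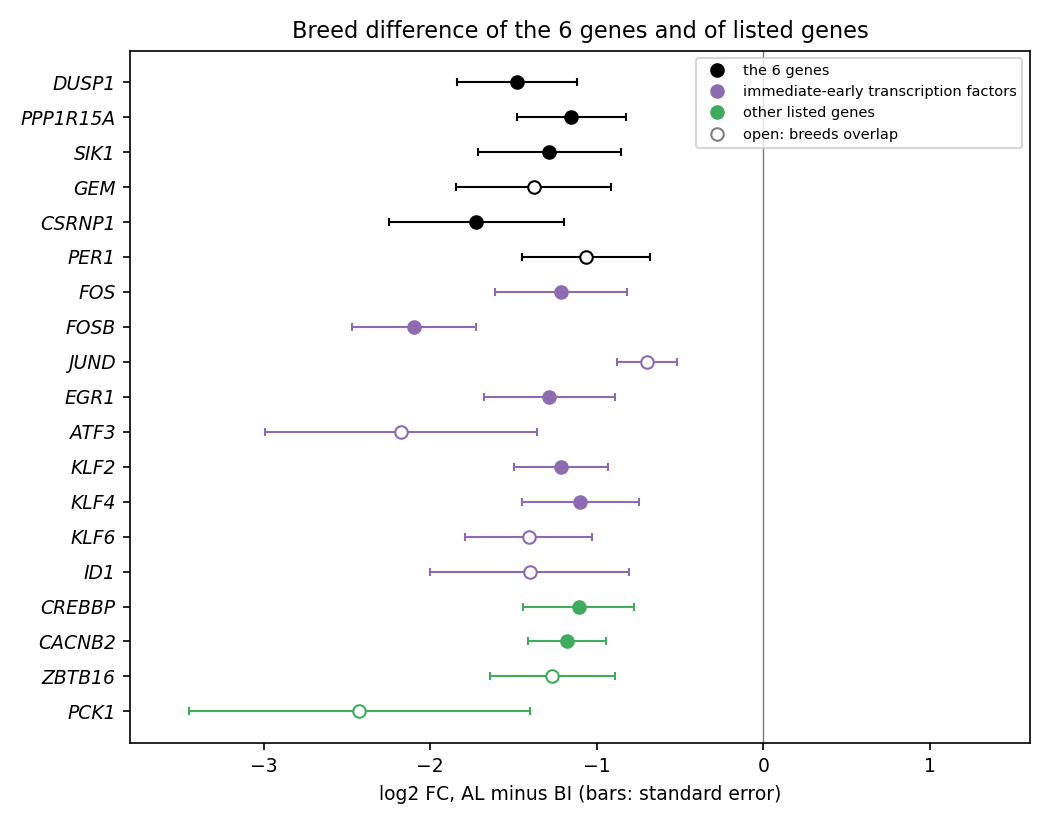
Log2 FC (AL minus BI) with its standard error for the 6 genes (black), 9 immediate-early transcription factors (purple) and 4 genes of the lists around SIK1, GEM and the glucocorticoid response (green), where filled points mark genes whose breeds do not overlap. All 19 values are below 0, from −2.42 for PCK1 to −0.70 for JUND, and every gene shown had been chosen by the authors for a breed difference in these pigs.

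Markers of other cell types moved with the breeds as well, and in bulk tissue a smaller number of cells of a type and less RNA per cell cannot be told apart. All 8 adipocyte markers were in the authors' table, with PLIN1 at a mean of 1567 normalized counts over the 8 pigs. Those with values per pig, FABP4, LEP and CEBPA, summed to 1080 to 1501 in AL and 523 to 755 in BI, opposite in direction to the 6 genes. FABP4 made up most of this sum and its breeds did not overlap, whereas those of LEP and CEBPA did. ADIPOQ, which had no values per pig, was numerically but not significantly higher in BI in the study. Of 9 endothelial markers 4 had values per pig: TIE1, CLEC14A and PODXL summed to 44.1 to 66.7 in AL and 83.3 to 170 in BI, but EGFL7 was higher in AL, and with it the sum was 2221 to 3658 in AL and 1460 to 2019 in BI. Of the 9 muscle and 7 matrix markers, MYH7 (0.907 to 9.30 in AL, 4.72 to 40.5 in BI) and ELN (12.9 to 22.6 and 19.2 to 87.2) had values per pig, and their breeds overlapped. None of 9 macrophage and leukocyte markers and none of 5 erythrocyte markers had values per pig, and no marker that had them was at 0 in all pigs. The part of these cell types in the differences of the 6 genes was not tested.

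No exon of the 6 genes overlapped an exon of another annotated gene, although the spans of non-coding RNAs overlapped those of GEM (same strand) and CSRNP1 (opposite strand). Opposite-strand genes ended within 5 kb of the 3′ end of PPP1R15A (TULP2, 1168 bases away) and of CSRNP1 (TTC21A, 2796 bases away), and a non-coding RNA started 42 bases from the start of DUSP1 on the opposite strand. The strand setting of the counting is not given in the sources used here, and the part of such neighbours in the counts was not tested.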

How the data were processed

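The authors trimmed stranded paired-end reads with Trim Galore 0.5.0, aligned them to Sscrofa11.1 with HISAT2 2.1.0, counted them per gene with HTSeq 0.11.1 and normalized them with DESeq2. The deposited values per pig are a signal, read counts scaled by the size factors of the authors, and cover the 458 genes that they called. For 10710 genes their pooled mean is deposited. The deposited fold changes, standard errors, statistics and p-values of the authors' comparison were not used. Symbols of the larger table came from a list of gene identifiers, which named 8923 of the 10710.

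Pigs were grouped by the breed code of their titles. That each is a separate animal is taken from the study's methods. The 6 genes and the gene lists were chosen with earlier results of these data known. All 6 genes were named, together with the listed genes with values per pig and the 5 genes of most similar profile. The pseudocount was 1, and no gene was filtered out. Gene models, promoters and 3′ untranslated regions were read from RefSeq for Sscrofa11.1, where all 6 genes were placed by symbol. Counting intervals and read numbers cover counting error only, and 4 pigs per breed limit each mean. The tests were checked on simulated counts of 458 genes: 2.71% of the unchanged genes had an exact p under 0.05, and 67.0% of those changed by 1 and 100% of those changed by 2 on the log2 scale. The simulation gave all genes 1 fixed dispersion between pigs that was not fitted to these data. The 6 genes had SDs within breeds of 0.46 to 0.74 on the log2 scale, so that these shares need not hold for them. Fits across genes used limma 3.58.1 (R 4.3.3), exact permutation tests NumPy 2.4.6, Poisson intervals SciPy 1.17.1, tables pandas 2.3.3, and plots Matplotlib 3.10.9, under Python 3.11.15.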

Additional observations from a re-analysis of the deposited data

Results flagged for a closer look

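PER1 in AL52, with 98.9 normalized counts, was farther from the other 3 AL pigs (43.5 to 50.5) than Dixon's criterion allows for 4 samples, with a gap of 0.875 of the range of the breed. It was the only 1 of the 12 groups of 4 values (6 genes in 2 breeds) past the critical value, and chance marks about 1 in 20 groups.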

How the results depend on the processing

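All 6 genes stayed higher in BI under each rescaling, pseudocount, estimator and left-out pig. The median log2 FC of the 6 genes, −1.33, ranged from −1.56 to −1.15 on omitting single pigs and was −1.02 with a pseudocount of 10. Rescaled to the upper quartile of the 458 genes it was −1.95, and with it DUSP1 moved to −2.12, PPP1R15A to −1.79, SIK1 to −1.92 and PER1 to −1.70. This rescaling lowers the median of all 458 genes by construction, by −0.65, and a median of ratios over them by −0.51, which is close to the shift of the 6 genes. With either rescaling the breeds did not overlap in 5 of the 6 genes, PER1 being the exception, and 51.5% or 59.6% of all genes did not overlap. Without each pig in turn, the count of the 6 genes whose breeds did not overlap ranged from 4 to 6, the latter without BI37. Of all 458 genes, 80.3% to 89.7% did not overlap in these settings, the latter also without BI37. The count was 3 among those of the 6 genes that averaged 50 normalized counts or more, and a share over all genes was not computed for this setting. No pair ratio passed under a pseudocount of 0.1 or 10. Count tests planned on recovered reads (edgeR and DESeq2) were not run, since in some pigs low values were too few to check that the step of the values is 1 read. No paired analysis was possible because the breeds share no replicate numbers. GEM and CSRNP1, with as few as 6 and 3 reads in an AL pig, are the genes that depth limits most.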

Other observations

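Levels of the relatives of the 6 genes can be given only as the authors' means over the 8 pigs, without a spread. They were 67.9 normalized counts for PPP1R15B, the constitutive counterpart of PPP1R15A, 133 for SIK2 and 13.4 for SIK3, 2.51 for REM1 and 6.37 for REM2, the other RGK GTPases of the table, and 3.35 for CSRNP2. Among the other MAP kinase phosphatases they ranged from 3.47 for DUSP5 to 23.9 for DUSP4. Among the clock genes the mean was 32.6 for PER2, 75.8 for BMAL1 and 33.7 for CLOCK, the activators that PER proteins repress, and 2672 for NR1D1, a nuclear receptor that represses BMAL1. Neighbouring genes were examined for the 6 genes only, and the part of opposite-strand neighbours in these means was not tested. The glucocorticoid receptor gene NR3C1 had a mean of 8.65.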
